A study of Mus musculus with 12 samples.

Results

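The nucleotide excision repair genes examined were Xpc, Rad23b, Ddb1, Ddb2, Ercc6, Ercc8, Ercc2, Ercc3, Xpa and Ercc5. These 10 genes were chosen by name from the 27179 genes of a whole-kidney RNA sequencing table of mice, in which each row is an NCBI Gene number. All 10 were among the 14972 genes that reached 1 TPM in at least 3 of the 12 libraries. TPM, a normalized transcript abundance, is a share of the library corrected for gene length, so levels of different genes can be set side by side. The table held 4 groups of 3 kidneys, from wild-type and FAN1KO mice given saline or cisplatin. FAN1KO denotes the γGT1-Cre;Fan1-/- genotype, in which the Cre driver restricts the loss of Fan1, a DNA crosslink repair nuclease, to proximal tubule cells, so the other cells of a whole kidney keep the gene. Cisplatin, a platinum drug that crosslinks DNA, was injected intraperitoneally at 2 mg/kg each week for 5 weeks, and control mice of both genotypes had saline in its place. All mice were 8 to 12 weeks old, and the labels give the strain background as Mixed while the study's methods describe backcrossing to 129Sv-Elite.

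Nucleotide excision repair removes bulky and helix-distorting lesions, including the intrastrand crosslinks that cisplatin leaves on DNA. XPC with RAD23B, helped by the DDB1 and DDB2 dimer, finds lesions anywhere in the genome, whereas ERCC6 and ERCC8 act where RNA polymerase stalls in a transcribed gene. Both routes load the TFIIH complex, whose ERCC2 and ERCC3 subunits open the helix, and XPA then checks the lesion before ERCC5 and the ERCC1 and ERCC4 dimer cut the strand on either side and polymerases fill the gap.

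Promoter windows were read for 7 of the 10 genes from RefSeq on GRCm38.p6, the mm10 genome that the labels name. Each window covered 250 bases before and 50 bases after a transcription start. Windows are shown for Ddb1 and Ercc5, which were higher in FAN1KO than in wild-type kidneys under cisplatin, and for Ercc6 and Ercc8, which did not pass that test. Capitals mark the 8 motifs searched on both strands, which were the GC box (GGGCGG), the CCAAT box (CCAAT), the E-box (CACGTG), the NRF1 motif (GCATGCGC), the ETS site (CCGGAAGT), the CRE (TGACGTCA) and E2F sites in 2 forms (TTTCCCGC and TTTGGCGC). Neighbouring matches may overlap, as the NRF1 matches of both strands do in Ercc6.
Ddb1, chr19:10605347-10605646, plus strand: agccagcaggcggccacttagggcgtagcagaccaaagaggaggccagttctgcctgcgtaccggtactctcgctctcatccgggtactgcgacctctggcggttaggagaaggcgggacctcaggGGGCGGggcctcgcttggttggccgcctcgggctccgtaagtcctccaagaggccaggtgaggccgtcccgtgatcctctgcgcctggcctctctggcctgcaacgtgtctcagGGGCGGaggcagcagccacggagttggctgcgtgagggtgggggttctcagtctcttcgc
Ercc5, chr1:44147494-44147793, plus strand: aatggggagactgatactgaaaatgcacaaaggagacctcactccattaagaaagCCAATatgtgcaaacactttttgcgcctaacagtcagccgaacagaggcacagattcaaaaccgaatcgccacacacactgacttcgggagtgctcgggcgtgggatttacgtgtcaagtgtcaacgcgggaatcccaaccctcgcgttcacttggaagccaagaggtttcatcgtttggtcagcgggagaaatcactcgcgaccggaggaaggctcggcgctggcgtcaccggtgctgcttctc
Ercc6, chr14:32513271-32513570, plus strand: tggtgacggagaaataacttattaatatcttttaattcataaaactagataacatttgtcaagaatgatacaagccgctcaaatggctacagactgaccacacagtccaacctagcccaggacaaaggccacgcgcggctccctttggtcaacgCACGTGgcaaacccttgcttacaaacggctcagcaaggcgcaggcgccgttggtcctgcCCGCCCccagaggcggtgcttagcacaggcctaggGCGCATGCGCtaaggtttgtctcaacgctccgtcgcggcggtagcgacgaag
Ercc8, chr13:108158488-108158787, plus strand: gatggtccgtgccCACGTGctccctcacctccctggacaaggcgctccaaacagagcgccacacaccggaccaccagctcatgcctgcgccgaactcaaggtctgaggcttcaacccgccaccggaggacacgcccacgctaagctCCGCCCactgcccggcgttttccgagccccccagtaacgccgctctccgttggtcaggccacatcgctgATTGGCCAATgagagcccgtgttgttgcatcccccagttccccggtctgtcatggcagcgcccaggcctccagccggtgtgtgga

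The Ddb1 window held 2 GC boxes and no other motif searched, and the Ercc5 window held 1 CCAAT box only. That Ercc5 window lay wholly within the annotated span of the gene, so the sequence before the gene's first annotated base was not read. The Ercc6 window began at 32513271, shortly before that gene's first annotated base at 32513291, so most of it also lay within the gene. The Ercc6 window held 1 GC box, 1 E-box and 2 overlapping NRF1 motifs, and the Ercc8 window 1 GC box, 2 CCAAT boxes and 1 E-box. Over the 7 windows a GC box stood in 5 (Ddb1, Ercc2, Ercc6, Ercc8 and Rad23b), against 35.7% of the 32851 promoter windows of the table. A CCAAT box stood in 5 (Ercc2, Ercc5, Ercc8, Rad23b and Xpa), against 37.4%. The E-box was found in Ercc6 and Ercc8 and in 7.15% of all windows, and the NRF1 motif in Ercc6 and Xpa and in 2.71%. The ETS site (3.89% of all windows), the CRE (1.79%) and the E2F forms (1.07% and 0.514%) were in none of the 7. The 7 windows had GC contents from 53.3% to 70.7%, where the median of all windows was 52.7%.

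The libraries held 37201916 to 82947186 reads assigned to genes, as recovered from the steps of the TPM values, and the least read member was Ddb2, with 102 to 296 reads per library. Fan1 itself was read at 1.98 to 3.80 TPM in wild-type and 1.17 to 3.51 TPM in FAN1KO kidneys, and the genotypes overlapped under both treatments, so its RNA does not separate the labels. Y-linked RNA was present in 1 library of each group, namely wild-type saline 3, wild-type cisplatin 1, FAN1KO saline 1 and FAN1KO cisplatin 3, and absent or near 0 in the other 8. Among markers, the sum of 8 proximal tubule genes was 4196.6 to 5031.5 TPM in wild-type saline, 3925.3 to 6020.5 in FAN1KO saline, 3583.0 to 5398.5 in wild-type cisplatin and 1322.8 to 2659.3 in FAN1KO cisplatin kidneys. No marker of any list was at 0 in any group as a whole, and the kidney label held in every group by proximal tubule and distal nephron genes.

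In level the members spanned a wide range, from Ddb1, with a median of 128 TPM over the 12 libraries, to Ercc6, with 3.67 TPM. Between them came Rad23b (60.1 TPM), Xpa (41.4), Xpc (23.0), Ercc3 (13.2), Ercc5 (7.79), Ercc2 (6.17), Ercc8 (5.46) and Ddb2 (3.73). The lowest Ddb1 library, at 106 TPM, lay above the highest Rad23b library, at 87.8 TPM. Every other pair of neighbours in this order overlapped across the 12 libraries.

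**Figure D1:**
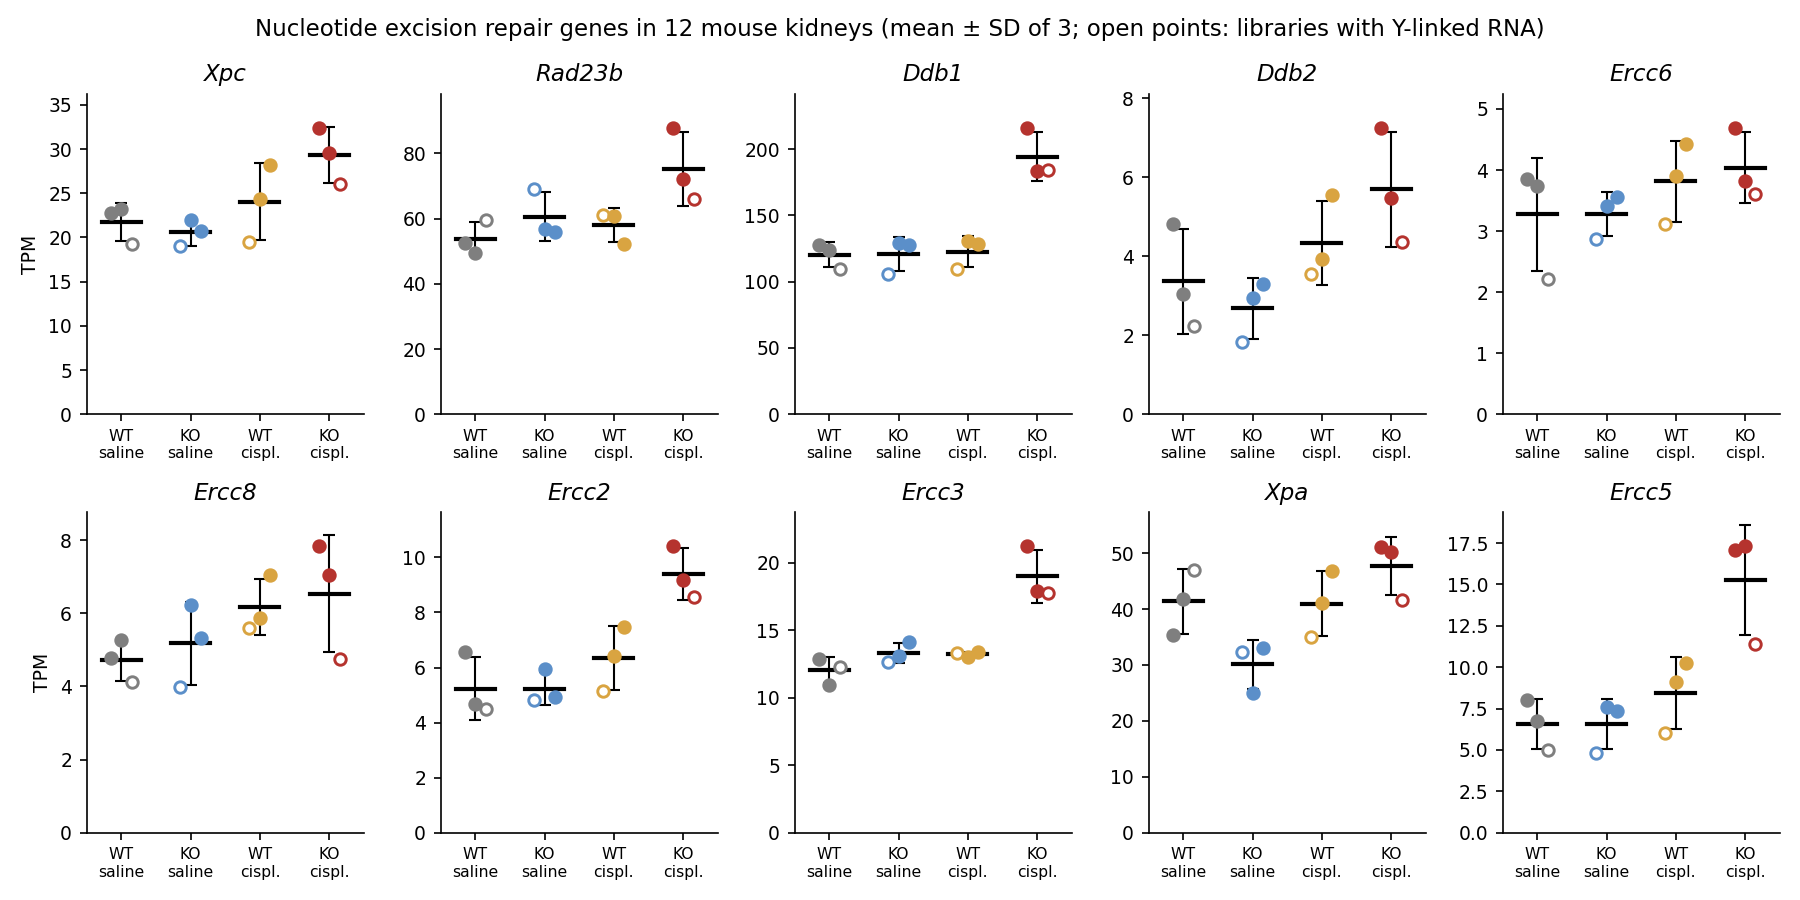
TPM of the 10 nucleotide excision repair genes (y axis, from 0) in each kidney, by group (x axis, WT wild-type, KO FAN1KO), with the mean and SD of 3. Open points are the libraries with Y-linked RNA. In Ddb1, Ercc3, Ercc5, Ercc2 and Rad23b, all 3 FAN1KO cisplatin points lie above all 3 wild-type cisplatin points.

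Damage recognition was led by Ddb1, the adaptor that joins DDB2 and other receptors to Cul4 ubiquitin ligases and the most abundant member. Ddb1 (Gene 13194, chr19:10605568-10629828) stood at 127, 124 and 110 TPM in wild-type saline, 106, 129 and 128 in FAN1KO saline, 110, 130 and 128 in wild-type cisplatin and 216, 183 and 184 in FAN1KO cisplatin kidneys. The first 3 groups covered the same range, and every FAN1KO cisplatin library lay above all 9 others. The share of all genes separated in that way is not given here or below. The FAN1KO cisplatin mean of 194 ± 18.8 TPM was 1.58 times the wild-type cisplatin mean of 123 ± 11.5 TPM (SD, n = 3 each). The log2 difference of TPM + 1 was 0.66 (SE 0.117, 95% interval 0.40 to 0.92, limma adjusted p = 0.00397).

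Ddb2, the DNA-binding partner of Ddb1, varied more than its partner. Ddb2 (Gene 107986, chr2:91211545-91237132) was read at 4.82, 3.05 and 2.23 TPM in wild-type saline, 1.82, 2.95 and 3.29 in FAN1KO saline, 3.55, 3.92 and 5.54 in wild-type cisplatin and 7.25, 5.48 and 4.35 in FAN1KO cisplatin kidneys. The 2 cisplatin groups overlapped, and their log2 difference of 0.32 (95% interval −0.27 to 0.91, limma adjusted p = 0.401) leaves room for no change and for a near doubling. Its gene overlaps Acp2 in the RefSeq annotation, and whether the reads were counted by strand is not given in the sources used here.

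Xpc, the sensor of helix distortion, showed a smaller spread. Xpc (Gene 22591, chr6:91489305-91515888) was at 22.7, 23.3 and 19.2 TPM in wild-type saline, 19.0, 22.0 and 20.7 in FAN1KO saline, 19.5, 24.3 and 28.2 in wild-type cisplatin and 32.4, 29.6 and 26.1 in FAN1KO cisplatin kidneys. One wild-type cisplatin library reached into the FAN1KO cisplatin range, and the difference under cisplatin did not pass the test (log2 0.29, 95% interval −0.03 to 0.61, limma adjusted p = 0.171). Its annotated span overlaps the predicted gene Gm52912, which had no row among the genes analysed.

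Rad23b, which stabilises XPC, gave values of 52.6, 49.5 and 59.5 TPM in wild-type saline, 69.1, 56.8 and 55.7 in FAN1KO saline, 61.1, 60.8 and 52.2 in wild-type cisplatin and 87.8, 72.1 and 65.9 in FAN1KO cisplatin kidneys (Gene 19359, chr4:55350042-55392237). The FAN1KO cisplatin values lay above the 3 wild-type cisplatin values, yet the lowest of them was below a FAN1KO saline library. Its difference between genotypes under cisplatin was 0.36 on the log2 scale (95% interval 0.07 to 0.66) and missed the threshold (limma adjusted p = 0.0717).

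The transcription-coupled members had the smallest differences of the 10 between genotypes under cisplatin. Ercc6, the Cockayne syndrome B ATPase that binds stalled polymerase (Gene 319955, chr14:32513291-32580990), was at 3.86, 3.74 and 2.21 TPM in wild-type saline, 2.87, 3.41 and 3.55 in FAN1KO saline, 3.11, 3.91 and 4.42 in wild-type cisplatin and 4.69, 3.82 and 3.61 in FAN1KO cisplatin kidneys. Ercc8, the Cockayne syndrome A ubiquitin ligase receptor (Gene 71991, chr13:108158711-108201204), was at 4.78, 5.28 and 4.11 TPM, then 3.98, 6.22 and 5.33, then 5.59, 5.87 and 7.04, and then 7.83, 7.04 and 4.75 in the same order of groups. In both genes the genotypes overlapped under either treatment. Between genotypes under cisplatin the log2 difference was 0.07 for Ercc6 (95% interval −0.36 to 0.50, limma adjusted p = 0.820) and 0.06 for Ercc8 (−0.38 to 0.50, adjusted p = 0.861). These intervals reach beyond the median change of all genes in either gene, so a change of that size was not detectable at 3 mice a group.

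Among TFIIH helicases, Ercc3, the XPB translocase on chromosome 18 (Gene 13872), had control values within a narrow range. It was read at 12.9, 11.0 and 12.3 TPM in wild-type saline, 12.7, 13.1 and 14.1 in FAN1KO saline, 13.3, 13.0 and 13.4 in wild-type cisplatin and 21.2, 17.9 and 17.7 in FAN1KO cisplatin kidneys. All 3 FAN1KO cisplatin libraries lay above the other 9. The difference between genotypes under cisplatin was 0.49 on the log2 scale (SE 0.110, limma adjusted p = 0.0114), a ratio of means of 1.44. Without FAN1KO cisplatin 1, the highest library, the adjusted p was 0.0533.

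Ercc2, the XPD helicase (Gene 13871, chr7:19382017-19395694), showed 6.57, 4.67 and 4.48 TPM in wild-type saline, 4.84, 5.94 and 4.93 in FAN1KO saline, 5.14, 6.41 and 7.46 in wild-type cisplatin and 10.4, 9.19 and 8.56 in FAN1KO cisplatin kidneys. The FAN1KO cisplatin libraries were the 3 highest of the 12, but the difference between genotypes under cisplatin, 0.51 on the log2 scale (SE 0.174, 95% interval 0.13 to 0.90), gave a limma adjusted p of 0.0562. It passed by voom on the recovered reads (0.58, adjusted p = 0.0328), with no mean-variance trend (0.0486), with a Y-linked covariate (0.00811) and without wild-type cisplatin 3 (0.0495). Those were the only 4 of 16 alternative fits that called Ercc2, and the highest limma adjusted p was 0.192, without wild-type cisplatin 1. Ercc2 overlaps Klc3 and Mir343 in the annotation, so its reads may be shared with them.

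Xpa, the verification factor (Gene 22590, chr4:46175220-46196344), had a pattern of its own. It was at 35.4, 41.8 and 46.9 TPM in wild-type saline, 32.3, 25.1 and 33.1 in FAN1KO saline, 35.1, 41.0 and 46.8 in wild-type cisplatin and 51.2, 50.2 and 41.7 in FAN1KO cisplatin kidneys. The 3 FAN1KO saline libraries were the lowest of the 12, and the 2 wild-type groups had almost the same means, 41.4 ± 5.80 and 41.0 ± 5.83 TPM (SD, n = 3 each). In saline kidneys the genotypes differed by −0.45 on the log2 scale (95% interval −0.79 to −0.10), which did not pass the test across genes (limma adjusted p = 0.376), and the exact permutation p was 0.1, the smallest that 3 against 3 can give.

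Ercc5, the XPG nuclease that makes one of the cuts (Gene 22592, chr1:44146948-44181260), had the largest difference of the 10 between genotypes under cisplatin. It was at 8.01, 6.73 and 4.97 TPM in wild-type saline, 4.83, 7.58 and 7.34 in FAN1KO saline, 6.05, 9.08 and 10.2 in wild-type cisplatin and 17.1, 17.3 and 11.4 in FAN1KO cisplatin kidneys. Each FAN1KO cisplatin library was above the other 9, although the lowest of them, at 11.4 TPM, was close to the highest wild-type cisplatin library. The log2 difference was 0.79 (SE 0.247, limma adjusted p = 0.0421), a ratio of means of 1.81, and the call was lost without any 1 of wild-type cisplatin 1 (adjusted p = 0.151), wild-type cisplatin 2 (0.0644), FAN1KO cisplatin 1 (0.149) or FAN1KO cisplatin 2 (0.136). It was also lost with no filter on low values (0.0591), with only the libraries of the 2 groups (0.0704), without mitochondrially encoded genes (0.0772) and under the replicate block (0.0622), so it held in 8 of 16 alternative fits.

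The comparison of FAN1KO with wild-type kidneys under cisplatin asked which genes differ when the nuclease is missing during crosslink damage. Of the 10 members, 3 were higher (Ddb1, Ercc3 and Ercc5) and 0 lower, where 19.6% of all genes tested were called higher and 4.37% lower. In 5 members (Ddb1, Ercc2, Ercc3, Ercc5 and Rad23b) all FAN1KO values exceeded all wild-type values, which was so for 35.7% of all genes. The median log2 difference of the members was 0.34, beside 0.24 for all 14972 genes, and 7 of 10 members were above that median. Whole-table TPM thus moved upward for most genes, and after median-ratio scaling, which centres that shift near 0 (median of all genes −0.01), 2 members were called higher, Ddb1 (log2 0.37, adjusted p = 0.0145) and Ercc5 (0.52, adjusted p = 0.0345), with 9.28% of all genes called higher and 7.71% lower. Under that scaling Ercc3 was at 0.21 (adjusted p = 0.313), and Xpa, Ercc6 and Ercc8 turned to −0.07, −0.16 and −0.19 without passing the test.

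**Figure D2:**
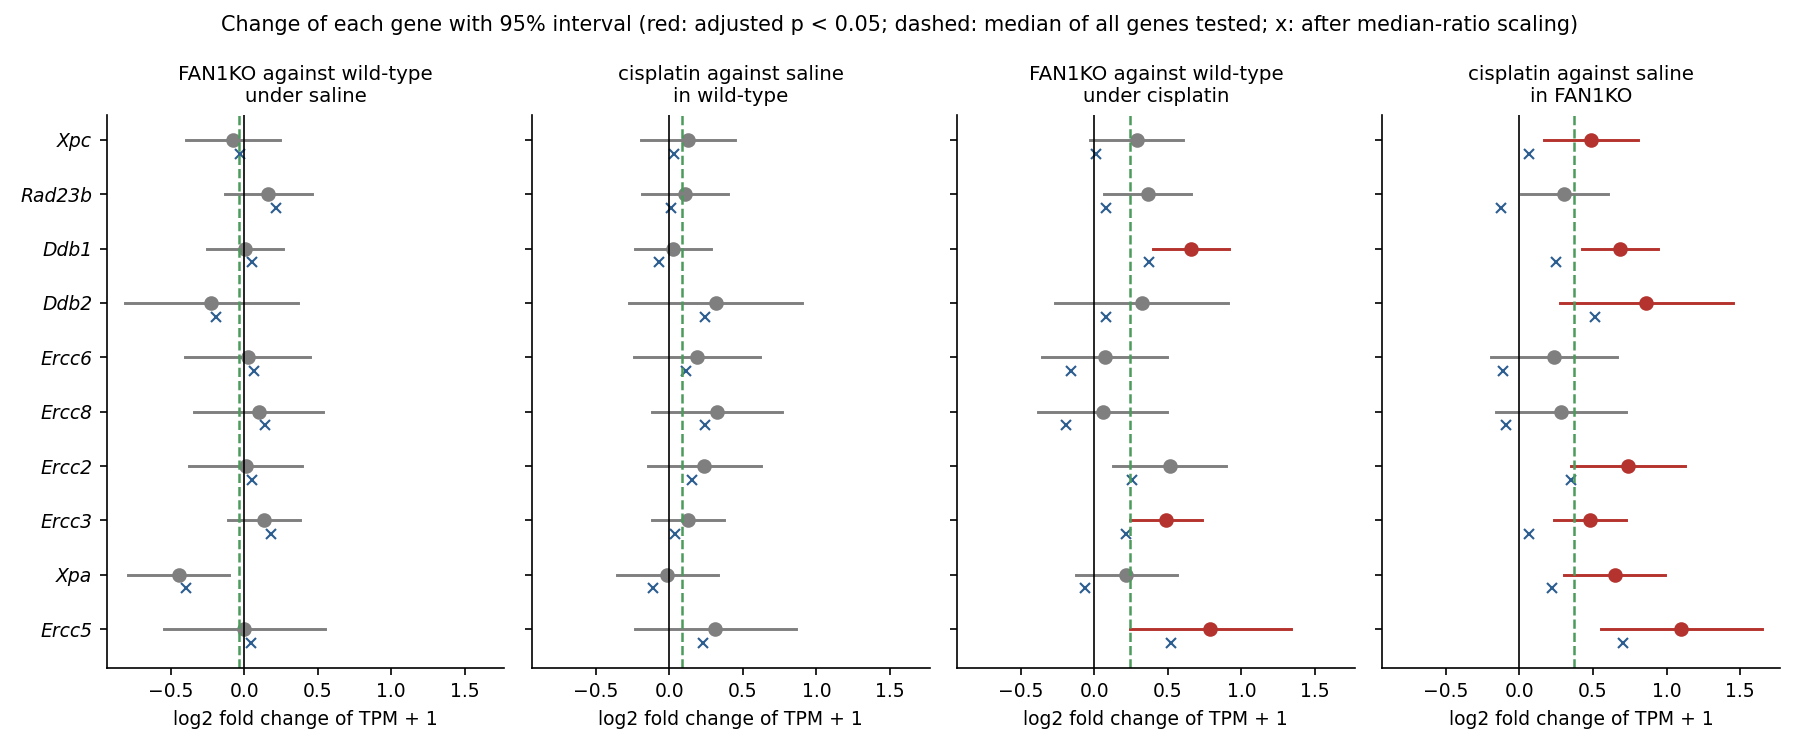
Log2 fold change of TPM + 1 (x axis) of each gene (y axis) in the 4 comparisons, with limma's 95% interval. Red points have an adjusted p under 0.05, the dashed line is the median of all genes tested and the crosses are the values after median-ratio scaling. No point is red in either comparison on the left, 3 are red under cisplatin between genotypes and 7 in FAN1KO kidneys.

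The response to cisplatin within FAN1KO mice took in more of the pathway. Here 7 of the 10 rose, namely Xpc, Xpa, Ddb1, Ddb2, Ercc2, Ercc3 and Ercc5, and 0 fell, while 34.9% of all genes were called higher and 4.9% lower. In 8 members all cisplatin values exceeded all saline values, as in 47.4% of all genes. Ercc5 rose most, by 1.10 on the log2 scale (SE 0.247, limma adjusted p = 0.00641), from 6.58 ± 1.52 to 15.3 ± 3.34 TPM (SD, n = 3 each). Ddb2 followed with 0.86 (SE 0.266, adjusted p = 0.0262), Ercc2 with 0.74 (SE 0.174, adjusted p = 0.00807) and Ddb1 with 0.68 (SE 0.117, adjusted p = 0.00169). Xpa rose by 0.65 (adjusted p = 0.00848), Xpc by 0.49 (adjusted p = 0.0216) and Ercc3 by 0.48 (adjusted p = 0.00706). Rad23b, Ercc8 and Ercc6, at 0.31, 0.28 and 0.24, did not pass (limma adjusted p = 0.0911, 0.279 and 0.354).

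That count depended on scale more than any other. The median of all genes was 0.37 higher in cisplatin than in saline FAN1KO kidneys on the log2 scale, the median of the members was 0.57, and after median-ratio scaling 2 members remained called higher, Ercc5 (0.70, adjusted p = 0.00616) and Ercc2 (0.35, adjusted p = 0.0469), with 15.6% of all genes higher and 13.7% lower. Ddb1 was then at 0.25 (adjusted p = 0.0501) and Ddb2 at 0.51 (adjusted p = 0.0623). The Xpc call was also lost without FAN1KO saline 1, FAN1KO cisplatin 1 or FAN1KO cisplatin 2 (limma adjusted p = 0.0746, 0.0886 and 0.0622), and the Ddb2 call without the same libraries (0.0997, 0.108 and 0.0646).

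In wild-type mice the same dose left the 10 genes without a call. By limma 0 members were higher or lower at an adjusted p under 0.05, where 0.0601% of all genes were called higher and 0% lower. At an unadjusted limma p under 0.05 there were also 0, beside 382 higher and 67 lower of all 14972 genes. By voom on the recovered reads 0 members were called as well. The largest values were 0.32 for Ercc8 (95% interval −0.12 to 0.76), 0.32 for Ddb2 (−0.27 to 0.90) and 0.31 for Ercc5 (−0.23 to 0.86) on the log2 scale. Ercc3 and Ercc8 were the only members whose cisplatin values all exceeded their saline values, as in 5.2% of all genes. Wild-type cisplatin 1, the library of its group with Y-linked RNA, was the lowest of the group in 8 members, all but Ercc3 and Rad23b. The share of all genes lowest in that library is not given here. Leaving it out moved the median log2 change of all genes from 0.084 to 0.181. Without that library no member was called either, beside 41 higher and 0 lower of all 14972 genes.

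The saline comparison addressed whether the genotypes differed without the drug. No member passed by limma (0 of 10), or by voom on the recovered reads, while 0.341% of all genes were called higher and 0.427% lower. At an unadjusted limma p under 0.05 stood 1 member, Xpa, beside 440 higher and 815 lower of all 14972 genes. Xpa was the only member with groups apart, all FAN1KO values lying below the wild-type values, as in 7.83% of all genes, and 0 members had groups apart in the other direction, as in 4.62%. For Ddb1 the interval of the difference ran from −0.25 to 0.26 and for Ercc3 from −0.11 to 0.38 on the log2 scale. Ddb2, at −0.22, had a wide interval of −0.81 to 0.37.

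The genotype by cisplatin interaction, which asks whether the response to the drug differed between genotypes, passed for 1 member, Ddb1 (log2 0.65, SE 0.166, limma adjusted p = 0.0450). Over all genes 5.22% were called higher and 1.02% lower. Ddb1 changed by 0.03 in wild-type and 0.68 in FAN1KO kidneys. Its call was lost without any 1 of 10 libraries, the exceptions being wild-type saline 3 and FAN1KO cisplatin 3, with adjusted p from 0.0471 to 0.117 over the 12, and under median-ratio scaling (adjusted p = 0.168). The next members were Xpa (0.66, limma adjusted p = 0.0944), Ercc3 (0.35, adjusted p = 0.188) and Ercc5 (0.79, adjusted p = 0.192).

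Sets of libraries without Y-linked RNA gave similar values with fewer mice. In the 8 libraries without it, 2 a group, the difference between genotypes under cisplatin was 0.62 for Ddb1 (limma adjusted p = 0.0039), 0.53 for Ercc3 (0.0157), 0.77 for Ercc5 (0.00391) and 0.49 for Rad23b (0.0187), so 4 members were called, as were 28.9% of all genes higher. With Y-linked RNA as a covariate in all 12 libraries 6 were called, the 3 named above together with Xpc (adjusted p = 0.0164), Ercc2 (0.00811) and Rad23b (0.0368), while the share of all genes called higher was 40.3%. The interaction was called for 4 members with the covariate and 2 in the 8 libraries, where 27.3% and 13.4% of all genes were called higher. In Xpc, Ddb2, Ercc2, Ercc5, Ercc6 and Ercc8 the library with Y-linked RNA was the lowest of its group in all 4 groups, 6 of 10 members, as it was for 41.6% of all genes tested. After median-ratio scaling this held for 1 member, Ercc5, and for 17.3% of all genes.

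The rest of the pathway was taken from a list of 41 other genes, of which 40 passed the filter on low values (Pole did not). Under cisplatin 18 of the 40 were higher in FAN1KO than in wild-type kidneys and 0 lower, beside 19.6% of all genes higher and 4.37% lower, with a median log2 difference of 0.395 beside 0.24 for all genes. Gap filling and ligation held 10 of the 18, among 17 genes tested. TFIIH gave 3 of 8 (Gtf2h4, Gtf2h5 and Mnat1), the transcription-coupled list 3 of 6 (Uvssa, Elof1 and Hmgn1), the incision partners 1 of 2 (Ercc1), recognition and ubiquitin ligase genes 1 of 4 (Cul4b) and single-strand binding proteins 0 of 3. After median-ratio scaling 6 of the 40 were called higher and 0 lower, beside 9.28% and 7.71% of all genes.

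Ercc1, the partner of Ercc4 in the other cut, moved further than any of the 10 members. It was at 13.4, 12.9 and 11.7 TPM in wild-type saline, 7.66, 11.9 and 11.6 in FAN1KO saline, 9.98, 19.9 and 18.9 in wild-type cisplatin and 40.9, 43.9 and 31.8 in FAN1KO cisplatin kidneys. The lowest FAN1KO cisplatin value was well above the highest value elsewhere. Between genotypes under cisplatin the log2 difference was 1.25 (SE 0.248, limma adjusted p = 0.00644), a ratio of means of 2.39. It was called in all 16 alternative fits, with adjusted p from 7.16e-05 to 0.0337. Its interaction of 1.54 also passed (SE 0.351, adjusted p = 0.0331). Ercc1 overlaps Cd3eap in the annotation, and that gene's part in the reads was not tested.

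Ercc4, the nuclease subunit that ERCC1 holds, did not follow its partner at the same size. Its values were 6.43, 5.32 and 5.64 TPM in wild-type saline, 4.30, 4.90 and 4.68 in FAN1KO saline, 6.45, 7.12 and 6.69 in wild-type cisplatin and 8.25, 8.04 and 6.78 in FAN1KO cisplatin kidneys. The cisplatin groups overlapped, with a log2 difference of 0.16 (95% interval −0.12 to 0.44, limma adjusted p = 0.382), whereas within FAN1KO mice cisplatin kidneys were 0.62 higher (adjusted p = 0.00403). That within-genotype call was lost after median-ratio scaling (0.25, adjusted p = 0.123).

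Cetn2, the centrin that binds XPC, gave no call, with means of 84.5 ± 9.78 TPM in wild-type cisplatin and 84.7 ± 5.25 TPM in FAN1KO cisplatin kidneys (SD, n = 3 each), a log2 difference of 0.01 (95% interval −0.29 to 0.31, limma adjusted p = 0.972). Uvssa, which keeps ERCC6 at the stalled polymerase, was at 4.21, 4.70 and 5.16 TPM in wild-type and 8.61, 7.25 and 6.51 TPM in FAN1KO cisplatin kidneys. Its values did not overlap, and the difference of 0.57 passed (limma adjusted p = 0.0374) but was lost without any 1 of wild-type cisplatin 1, 2 or 3 or FAN1KO cisplatin 1 or 2 (adjusted p from 0.0547 to 0.145) and under 5 other alternatives, median-ratio scaling among them (0.0686).

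Among the genes tested, gap filling held the largest log2 difference of TPM + 1, that of Lig1. Pole did not pass the filter and is outside this ranking, with means of 0.369 TPM in wild-type and 1.48 TPM in FAN1KO cisplatin kidneys. Lig1, the ligase that seals the patch in dividing cells, was at 2.03, 6.01 and 5.34 TPM in wild-type and 15.6, 12.8 and 12.1 TPM in FAN1KO cisplatin kidneys, a log2 difference of 1.495 (SE 0.304, limma adjusted p = 0.00713). Pold1, the catalytic subunit of polymerase delta, was at 3.10, 6.51 and 5.60 against 15.3, 13.4 and 10.4 TPM, a difference of 1.24 (SE 0.283, adjusted p = 0.0119, and 0.0566 without FAN1KO cisplatin 1). In both genes wild-type cisplatin 1 was the low library, and no value was shared between genotypes.

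Pcna, the polymerase clamp, was at 30.1, 37.1 and 38.0 TPM in wild-type and 69.4, 60.8 and 58.7 TPM in FAN1KO cisplatin kidneys, a log2 difference of 0.83 (SE 0.168, limma adjusted p = 0.00705). After median-ratio scaling it was 0.55 (adjusted p = 0.0652). Polk, a translesion polymerase that also serves in gap filling, was at 5.44, 6.47 and 6.84 against 10.5, 10.6 and 8.53 TPM, a difference of 0.58 (adjusted p = 0.0425). The Polk call was lost without any 1 of wild-type cisplatin 1, 2 or 3 or FAN1KO cisplatin 1 or 2 (adjusted p from 0.0621 to 0.140), and under 6 other alternatives, median-ratio scaling among them (0.32, adjusted p = 0.0747). Polk was also higher in wild-type cisplatin than in wild-type saline kidneys in every library (log2 0.73, exact permutation p = 0.1, the smallest possible), which did not pass across genes (limma adjusted p = 0.631) except with the Y-linked covariate (0.74, adjusted p = 0.0167).

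Within FAN1KO mice 26 of the 40 other genes were higher after cisplatin and 0 lower, beside 34.9% and 4.9% of all genes, with 14 of 17 in gap filling and ligation and both incision partners. After median-ratio scaling 12 were higher and 5 lower, beside 15.6% and 13.7% of all genes. In wild-type mice 0 of the 40 were called by limma or by voom. At an unadjusted limma p under 0.05 stood 2, beside 382 higher and 67 lower of all 14972 genes. With the Y-linked covariate 1, Polk, was called, beside 57 higher and 1 lower of all genes. Between genotypes in saline 1 of 40 was called, Gtf2h2, a TFIIH core subunit, at 10.00, 9.74 and 10.03 TPM in wild-type and 16.6, 16.6 and 26.7 TPM in FAN1KO kidneys (log2 0.91, limma adjusted p = 0.0490). That gene was named after its values were seen, and the call was lost without any 1 of the 6 saline libraries (adjusted p from 0.0622 to 0.177) and under 7 other alternatives (0.0522 to 0.263).

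**Figure D3:**
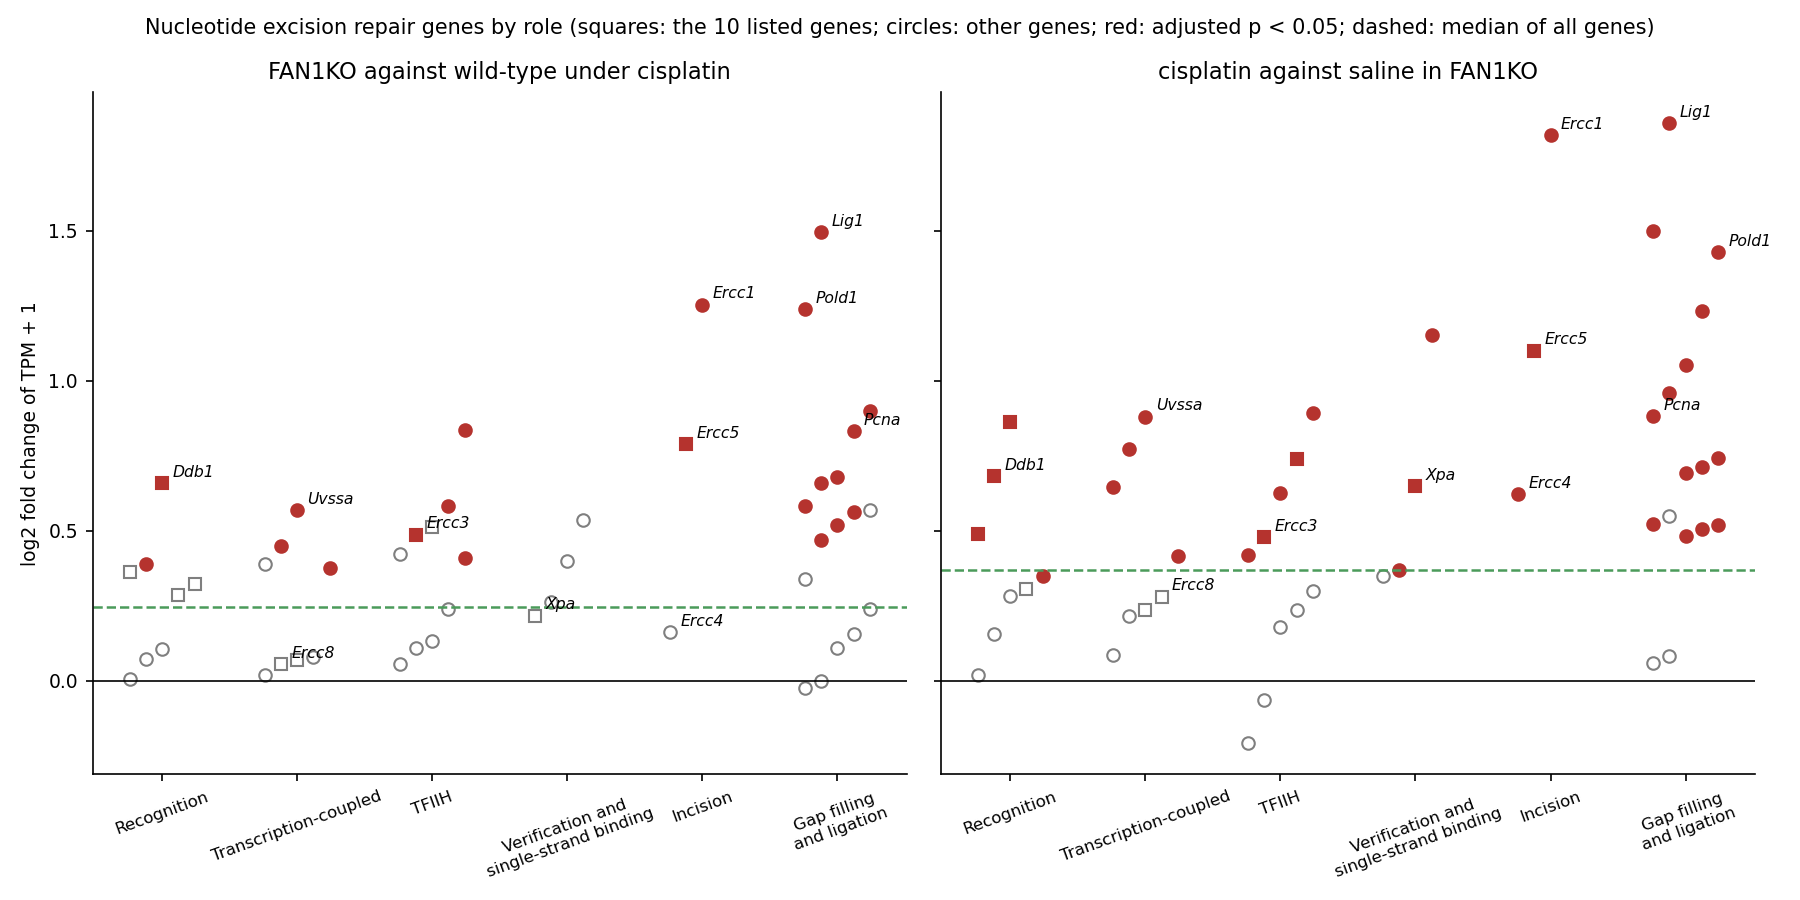
Log2 fold change of TPM + 1 (y axis) for the 10 genes (squares) and the 40 other nucleotide excision repair genes (circles), by role (x axis), for FAN1KO against wild-type under cisplatin and for cisplatin against saline in FAN1KO. Filled red symbols have a limma adjusted p under 0.05, and the dashed line is the median of all genes, 0.24 and 0.37. Lig1, Ercc1 and Pold1 are the highest points on the left.

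Cell type markers moved with these groups in the same libraries. Under cisplatin all 6 dividing cell markers (Mki67, Top2a, Ccnb1, Ccna2, Cdk1 and Birc5) were higher in FAN1KO than in wild-type kidneys, and their sum ranged from 3.27 to 7.76 TPM in wild-type and from 18 to 23.6 TPM in FAN1KO cisplatin kidneys, with 2.41 to 4.72 and 2.86 to 6.27 TPM in the wild-type and FAN1KO saline kidneys. All 4 injured tubule markers (Havcr1, Lcn2, Krt20 and Vcam1) were higher as well, with sums of 32.8 to 148 TPM against 778 to 1155.1 TPM. Of the 8 proximal tubule markers 5 were lower and 0 higher. The leukocyte sum was 32.6 to 62.4 TPM in wild-type and 44.3 to 98.8 TPM in FAN1KO cisplatin kidneys, with 1 of 7 markers called higher. The podocyte sum was 20.8 to 47.2 against 7.03 to 49.7 TPM with 0 of 2 called, and the thick ascending limb and distal nephron sum was 1409.6 to 3211.6 against 2763.1 to 3296.0 TPM with 1 of 4 called higher. The part of these shifts in the values of Ddb1, Ercc3, Ercc5, Ercc1 and the gap filling genes was not tested. In whole-kidney RNA a change in the number of cells of a type and a change in RNA per cell cannot be told apart.

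**Figure D4:**
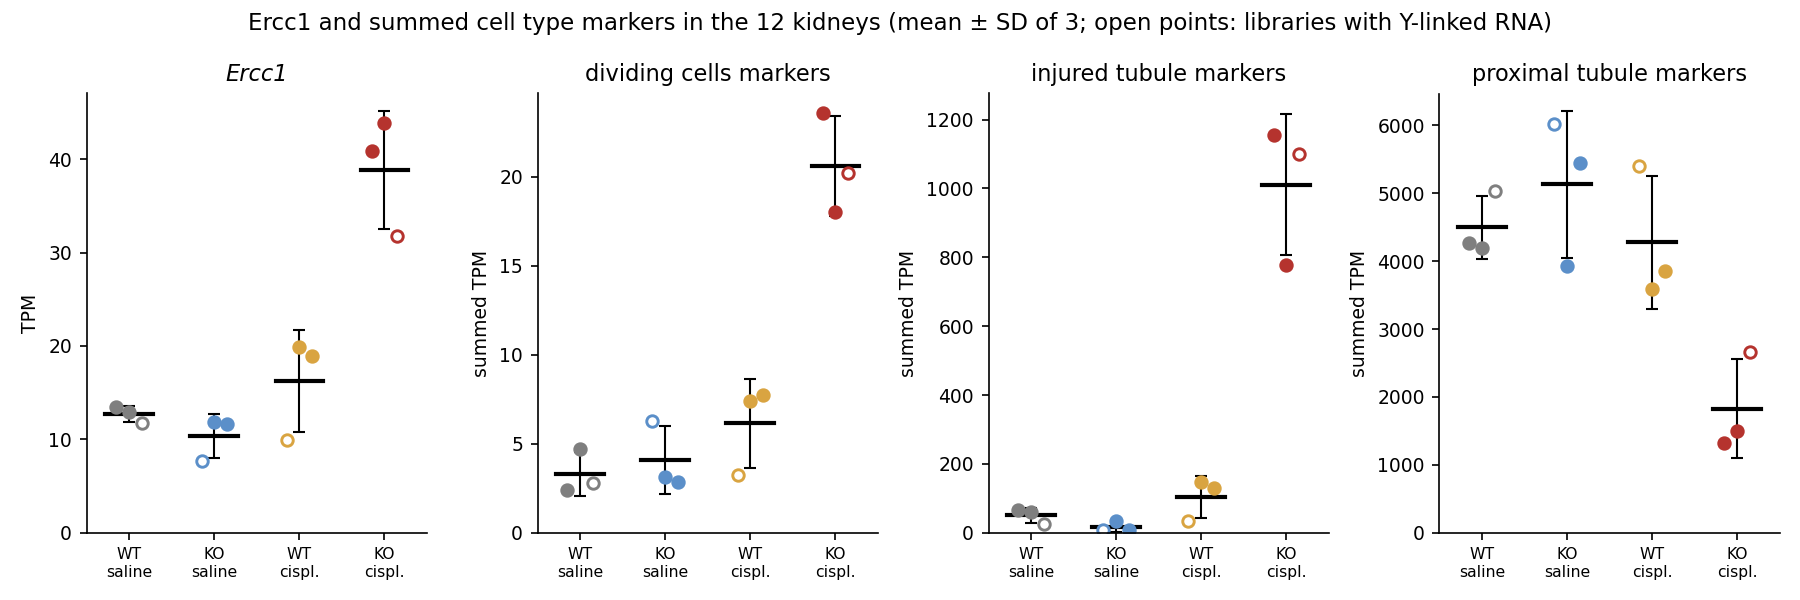
TPM of Ercc1 and summed TPM of the dividing cell, injured tubule and proximal tubule markers (y axes, from 0) in each kidney by group, with the mean and SD of 3. Open points are libraries with Y-linked RNA. Ercc1 and the first 2 marker sums are highest in the 3 FAN1KO cisplatin kidneys, where the proximal tubule sum is lowest.

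Across the 12 libraries the members varied together, a description in which the groups, the depth and the library scale are shared by all genes. The 45 pairs of members had a median Pearson r of 0.71 on log2(TPM + 1), from 0.14 to 0.95, and 0.48 (−0.34 to 0.90) after each group's mean was taken away. Xpc and Ercc5 were each other's closest member (r = 0.95, and 0.90 within groups). Ercc5 was also the closest to Ddb1 (0.93) and Ercc2 (0.95). Ddb2 was closest to Xpc (0.90), Ercc3 to Ddb1 (0.92), Rad23b to Ercc3 (0.82), Ercc8 to Xpc (0.80) and Ercc6 to Ddb2 (0.85), whereas Xpa had the lowest best match, with Xpc (0.64, and 0.28 within groups). Outside the pathway the 3 genes most like the mean profile of the members were Nfx1 (r = 0.992), Ssh3 (0.991) and Parn (0.990) over 12 libraries. Parn, for example, had means of 14.6 ± 1.68 TPM in wild-type and 13.3 ± 1.06 TPM in FAN1KO kidneys given saline, and of 16.9 ± 1.84 and 23.7 ± 4.45 TPM in those given cisplatin (SD, n = 3 each).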

How the data were processed

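The members and the other gene lists were chosen with earlier results of these data known. The deposited values are TPM by NCBI Gene number (27179 genes), as the authors computed them, and each of the 12 libraries sums to 1000000. The labels name the mm10 genome and limma, while the aligner, the counter and the annotation are not given in the sources used here. Genes were named from RefSeq on GRCm38.p6. Nothing in the labels says that mice of a group came from separate litters, so p-values measure the spread between these mice.

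Genes with at least 1 TPM in at least 3 libraries were tested on log2(TPM + 1), which understates changes of low genes. The 4 group means were estimated jointly from the 12 libraries by limma 3.58.1 (R 4.3.3), allowing a mean-variance trend. p-values were adjusted over 14972 genes by Benjamini and Hochberg, and 0.05 was the threshold. Exact permutation tests of 3 mice against 3 cannot give a p below 0.1. Median-ratio scaling divided each library by its median ratio to the geometric mean of all libraries.

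Genes of the 2 lists were counted, with values for the 10 members, for Ercc1, Ercc4, Cetn2, Uvssa, Pcna, Lig1 and Polk, and for the 3 largest called differences between genotypes under cisplatin. One gene of the pathway list is not reported here and is in none of its counts. The genes most like the members were the 3 with the highest r to their mean standardised profile. Alternatives were a pseudocount of 0.1, no filter, only the libraries of the 2 groups, no mitochondrially encoded genes, median-ratio scaling, the replicate number as a block, a Y-linked covariate, no trend and each library left out. After seeing the data, voom on recovered reads and a fit without the 4 libraries with Y-linked RNA were added.

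Reads were recovered from the TPM steps, taking for each gene the smallest length at which its values were whole within 0.02 reads. Such a length was found for 22557 of 22557 genes with a value above 0. All 232991 values above 0 are whole by that choice, so their count is no separate check. The length came out as annotated for 298 of 401 small RNAs. Read totals, the reads of single genes and the voom fit rest on these lengths. On simulated data for FAN1KO against wild-type under cisplatin, 192 of 200 genes changed 2-fold were recovered among 14539 genes, with 21 unchanged genes called. The simulation gave all genes the same dispersion, a spread beyond counting noise. It drew the changed genes only from better-read genes and moved as many up as down. Smaller changes and the spread of the real groups were not simulated, so recovery under those conditions is not known. Tables and plots were made in Python 3.11.15 with pandas 2.3.3, numpy 2.4.6 and matplotlib 3.10.9.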

Additional observations from a re-analysis of the deposited data

Results flagged for a closer look

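The response to cisplatin differed between the genotypes, by the limma test of the interaction itself, for Ddb1 among the 10 genes (log2 0.65, adjusted p = 0.0450) and for Ercc1 (1.54, adjusted p = 0.0331) and Rfc5, a clamp loader subunit (0.79, adjusted p = 0.0405), among the 40 others. By the same test 5.22% of all genes were called higher and 1.02% lower. Ddb1 was higher in 3 of 3 FAN1KO cisplatin kidneys than in every other kidney, and so were Ercc1 and Rfc5. The share of all genes with that separation is not given here. These 3 genes were taken for their interaction on the same values, so the separation adds no further support. Rfc5 was at 12.2, 9.66 and 12.1 TPM in wild-type cisplatin and 17.8, 17.4 and 16.2 TPM in FAN1KO cisplatin kidneys. Leaving out single libraries ended the Ddb1 call in 10 of 12 cases, the Rfc5 call in 9 of 12 and the Ercc1 call in 6 of 12 (adjusted p up to 0.0907). After median-ratio scaling the Ercc1 call held (1.22, adjusted p = 0.0233), and Ddb1 (0.32, adjusted p = 0.168) and Rfc5 (0.47, adjusted p = 0.239) did not pass. Groups of 3 were too small for a test of single outlying libraries.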

How the results depend on the processing

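Of 850 values for the 10 members under 22 alternatives, 746 kept their direction and their side of the threshold, 38 lost and 14 gained a call and 52 changed sign, none of these a call in the report. Values of the other genes are outside this count. Members called between genotypes under cisplatin numbered 3, ranged from 1 to 4 with single libraries left out (1 without FAN1KO cisplatin 1), and were 6 with the Y-linked covariate. In FAN1KO mice 7 were called, 5 to 7 with libraries left out and 2 under median-ratio scaling. In the saline comparison and in wild-type mice the count was 0 under every alternative. For the interaction it was 1, 0 to 1 with libraries left out, 0 with a pseudocount of 0.1, without mitochondrially encoded genes, under median-ratio scaling, with the replicate block or no trend, 4 with the Y-linked covariate (27.3% of all genes higher) and 2 without the libraries with Y-linked RNA (13.4%), against 5.22% in the main comparison. Beyond single libraries the causes were not tested.

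Other genes called fell from 18 to 6 between genotypes under cisplatin and from 26 to 17 (12 higher, 5 lower) in FAN1KO mice under median-ratio scaling. In saline the 1 call became 0 with the replicate block, voom or without Y-linked libraries, and Gtf2h2 itself was also not called with no filter, only the libraries of the 2 groups, no mitochondrially encoded genes or no trend. For the interaction 2 became 1 under median-ratio scaling or the block, 10 without Y-linked libraries and 18 with the Y-linked covariate, where the shares of all genes were those above.

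Signs turned as follows. Under median-ratio scaling, between genotypes under cisplatin, Xpa was −0.065, Ercc6 −0.16 and Ercc8 −0.19. In FAN1KO mice Ercc6 was −0.11, Ercc8 −0.091 and Rad23b −0.13, in wild-type mice Ddb1 was −0.07, and in the interaction Ercc6 was −0.23 and Rad23b −0.14. Without mitochondrially encoded genes Ercc6 and Ercc8 were −0.011 and −0.033 between genotypes under cisplatin, Ddb1 −0.004 in wild-type mice and Ercc6 −0.038 in the interaction. Without Y-linked libraries Ercc2 and Ercc6 were −0.03 and −0.10 in saline, Xpa 0.18 in wild-type mice and Ercc8 0.014 in the interaction. By voom Ddb1 was −0.008 in saline. With libraries left out, Ercc6 ranged from −0.039 to 0.16 and Ercc8 from −0.07 to 0.24 between genotypes under cisplatin. In saline the ranges were −0.06 to 0.10 for Ddb1, −0.42 to 0.007 for Ddb2, −0.075 to 0.16 for Ercc2, −0.16 to 0.18 for Ercc5, −0.17 to 0.13 for Ercc6 and −0.022 to 0.24 for Ercc8. In wild-type mice they were −0.12 to 0.09 for Xpa, −0.037 to 0.11 for Ddb1 and −0.005 to 0.30 for Ercc6, and in the interaction −0.062 to 0.24 for Ercc6 and −0.19 to 0.14 for Ercc8.

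Same-numbered mice of the 2 genotypes deviated together with r from −0.47 to 0.13 under cisplatin and from −0.61 to 0.51 in saline. Differently numbered mice gave r from −0.473 to 0.551 and from −0.619 to 0.765. Deviations from a mean of 3 are tied to each other, so these r values cannot decide whether same-numbered mice were paired. With the replicate block 2 members were called between genotypes under cisplatin and 7 in FAN1KO mice. With 3 mice a group, and 102 to 296 reads for Ddb2, small changes of the low genes may have been missed.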
